A study of Mus musculus with 28 samples.

Results

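Removal of Hnf4g alone was examined in mTEClo, the medullary thymic epithelial cells (mTECs) with low MHC class II that the labels describe as post-Aire. The comparison took the 7 of 28 libraries whose labels give Hnf4a as heterozygous in mTEClo, 3 with both Hnf4g alleles lost and 4 controls. All 7 came from C57BL/6 thymus carrying Foxn1-Cre, a driver active in thymic epithelium. The controls had 1 floxed and 1 wild-type Hnf4a allele (Hnf4a fl/+) and were Hnf4g +/-, and the Hnf4g-/- group had the same Hnf4a fl/+ genotype. The controls had therefore already lost 1 Hnf4g allele, both groups carried 1 floxed Hnf4a allele together with Cre, and neither is a wild-type thymus. The Hnf4g alleles are written as + and -, not as floxed, so the labels do not limit their loss to the thymus. For reference, 3 mTEClo libraries with both Hnf4a alleles floxed and 1 Hnf4g allele kept (Hnf4a fl/fl, Hnf4g +/-), 4 double-mutant mTEClo libraries (Hnf4a fl/fl, Hnf4g -/-), 8 mTEChi libraries (4 control, 4 double-mutant) and 6 wild-type libraries, 3 from an entero-hepato gate and 3 from outside it, were used. The label of each group gives no age.

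HNF4A and HNF4G are related nuclear receptors that bind DNA as dimers at the same kind of element. HNF4A is known from hepatocytes and the gut and kidney, and HNF4G is known chiefly from the intestinal epithelium, where both maintain genes of the absorptive enterocyte. In the thymic medulla, mTECs that have passed the Aire stage include mimetic cells, small populations that carry the gene programs of peripheral cell types such as enterocytes, hepatocytes, microfold cells and tuft cells. Their products show self antigens to developing T cells.

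When Hnf4g was removed, 18 genes fell and 0 rose. Of 18775 genes tested, 18 were called lower at an adjusted p under 0.05 (edgeR quasi-likelihood test with Benjamini-Hochberg adjustment), which is 0.0959% of the genes. At an unadjusted p under 0.05 there were 807 lower genes (4.3%) and 731 higher (3.89%), and the median log2 fold change over all genes was 0.00. DESeq2 called 103 lower and 41 higher, and limma voom 14 lower and 0 higher. By the marker lists used here, the 18 genes held Muc13, Cdhr5 and Vil1 of the brush border, Lyz1 and Clca4a of gut defence and secretion, Fabp1 of lipid handling, Sult1d1 of xenobiotic metabolism, Trim31 of the TRIM ligases and Ccl6, Ccl9 and Serpinb1a of the microfold list. Calml4, Agrn, Sh3d19, Serpinb6a, Sgms2, Lgals4 and Rhoc were in none of these lists. The lists and their members were chosen with earlier results of these data known, so their counts and medians, here and below, are descriptions. In each of the 18, every Hnf4g-/- library lay below every control library, as it did in 788 of all genes tested (4.2%), while 700 (3.73%) lay wholly above. The 18 were called by their p in the same libraries, so nothing is read from that separation.

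The number called moved with single libraries. Leaving out control replicate 2, 3 or 4 left 9, 8 and 9 genes called lower, leaving out Hnf4g-/- replicate 1 left 11 and Hnf4g-/- replicate 3 left 10. Without Hnf4g-/- replicate 3, 13 genes were called higher. Fabp1, Calml4, Trim31, Agrn, Ccl9, Sh3d19 and Lyz1 kept their call in each of the 7 fits that left out 1 library, and Cdhr5 lost it in each of them. Muc13, Clca4a, Rhoc, Serpinb1a and Vil1 kept it in 1 of the 7, Sgms2, Lgals4 and Sult1d1 in 2, Serpinb6a in 3 and Ccl6 in 4. Voom lost Fabp1, Trim31, Clca4a, Rhoc, Vil1 and Sult1d1, robust dispersion estimation lost Lyz1, Ccl6 and Serpinb1a, and a fit on the compared groups alone lost Ccl6, Rhoc, Serpinb1a, Vil1 and Sult1d1.

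Promoter sequence is shown for the called genes in which an HNF4-type element was found, because HNF4 proteins bind such elements directly. The element was searched as CAAAGTCCA, CAAAGTTCA and CAAAGGTCA on both strands of RefSeq promoters (GRCm38.p6; 250 bases before to 50 after the start), and 16 of the 18 genes had an entry. The 3 spellings share their first 5 letters but do not contain each other. CAAAGTCCA was found in Trim31 and Muc13, CAAAGTTCA in Ccl9 and CAAAGGTCA in Ccl6, each on the strand opposite to the gene. The 16 genes had 24 promoters, 4 of which held a match. Among all 32851 promoters of the same length the 3 spellings were in 0.475%, 0.390% and 0.478%, and any of them in 1.33%, or 1.20% of the promoters of tested genes. A match is a run of letters and not evidence of binding, and no binding data were used. The bases before the first annotated exon are written 5′ to 3′ on the strand of the gene, with the element (here read on the gene's strand) in capitals.

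Trim31, chr17:36897880-36898117, plus strand: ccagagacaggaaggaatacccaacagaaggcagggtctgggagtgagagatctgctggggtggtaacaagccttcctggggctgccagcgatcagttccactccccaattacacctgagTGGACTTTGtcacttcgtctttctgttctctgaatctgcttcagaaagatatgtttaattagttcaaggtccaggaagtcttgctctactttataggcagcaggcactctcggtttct
Muc13, chr16:33794239-33794366, plus strand: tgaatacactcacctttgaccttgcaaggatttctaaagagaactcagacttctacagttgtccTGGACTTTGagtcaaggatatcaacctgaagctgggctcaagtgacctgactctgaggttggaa
Ccl9, chr11:83578637-83578886, minus strand: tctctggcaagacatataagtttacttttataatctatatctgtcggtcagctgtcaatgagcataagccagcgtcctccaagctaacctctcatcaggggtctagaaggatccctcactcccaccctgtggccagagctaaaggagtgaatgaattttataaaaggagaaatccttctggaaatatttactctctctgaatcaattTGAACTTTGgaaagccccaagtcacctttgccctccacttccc
Ccl6, chr11:83593088-83593337, minus strand: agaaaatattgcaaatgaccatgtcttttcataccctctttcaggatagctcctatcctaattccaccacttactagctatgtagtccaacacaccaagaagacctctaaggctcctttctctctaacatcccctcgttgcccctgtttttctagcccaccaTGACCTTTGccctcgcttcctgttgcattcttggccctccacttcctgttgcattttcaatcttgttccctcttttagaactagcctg

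In Ccl9 the element lay 43 to 35 bases before the start, in Ccl6 88 to 80, in Trim31 130 to 122 and in Muc13 186 to 178 bases before the start that RefSeq gives for that window.

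The deposited values were read counts per gene from 1000 sorted cells per library. Total counts were 6407618 to 7445874 in the controls and 5504278 to 7112967 in the Hnf4g-/- group. Levels are given as CPM, the counts of a gene scaled for the size of its library with edgeR's TMM factors, and a fold change is the edgeR estimate on the log2 scale with its standard error (SE). Whether the libraries of 1 group stem from different animals is not said in the labels, and the p-values therefore describe the spread between these libraries alone, which may be technical. The epithelial marker Epcam was at 1045 to 1160 CPM in the controls and 1137 to 1199 in the Hnf4g-/- libraries. Aire-stage mTEC genes were uneven among the Hnf4g-/- libraries: their summed level was 6593 CPM in replicate 1 against 16308 and 17095 in replicates 2 and 3, and 10476 to 17208 in the controls. The other cells that a sort could carry over were sought with marker lists, given below beside the genes they bear on.

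The targeted gene, Hnf4g (chr3:3508030-3658052), was not called. It was at 9.13, 13.1, 15.9 and 12.9 CPM in control replicates 1 to 4 and at 9.09, 7.61 and 7.85 CPM in Hnf4g-/- replicates 1 to 3, from 43 to 56 reads per Hnf4g-/- library. All 3 Hnf4g-/- libraries lay below the controls, the first of them by a narrow margin, with a log2 fold change of -0.64 (SE 0.32, adjusted p = 0.637). Which exons of Hnf4g were deleted is not stated in the labels, and counts over the whole gene therefore do not check the genotype labels. Hnf4a was at 2.28, 3.70, 5.70 and 6.98 CPM in the controls and 3.71, 4.07 and 2.38 in the Hnf4g-/- libraries, and the groups overlapped (adjusted p = 0.868). Aire, which drives promiscuous expression of tissue-restricted genes, overlapped too, at 207 to 559 CPM in the controls and at 169, 719 and 644 CPM in the Hnf4g-/- libraries (adjusted p = 0.903). Of 7 measured genes within 5 Mb of Hnf4g, which share its chromosome segment, 0 were called, and the smallest adjusted p was 0.328. At an unadjusted p under 0.05, 3 of the 7 were lower and 1 higher, against 4.3% and 3.89% of all genes. Their median log2 fold change was -0.29, with a range from -2.65 to 0.76. Whether the targeted allele bears on these levels was not tested.

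Fabp1 and Trim31 had, with Calml4, the smallest adjusted p. Fabp1 (chr6:71199827-71205023), the fatty acid binding protein shared by liver and small intestine, was at 11.3, 25.0, 44.97 and 32.6 CPM in the controls and at 2.97, 3.36 and 2.66 CPM in the Hnf4g-/- libraries. The controls varied widely, yet even the lowest stood above all Hnf4g-/- libraries, which were nearly level with each other. The log2 fold change was -3.24 (SE 0.40, adjusted p = 0.00499). Trim31 (chr17:36898118-36910214), a RING-type ubiquitin ligase of the gut, was at 5.37, 15.1, 14.4 and 14.1 CPM in the controls and at 0.185, 0.354 and 0.280 CPM in the Hnf4g-/- libraries. The latter rest on 1, 2 and 2 reads against 40, 98, 96 and 97, so the log2 fold change of -5.38 (SE 0.69, adjusted p = 0.00499) is loosely bounded at its low end. The calls of both genes were lost under voom, which gave adjusted p = 0.180 for Fabp1 and 0.273 for Trim31. Another gene of the family, Trim40, overlapped between the groups and was not called (adjusted p = 0.517). The list held 7 measured TRIM ligases with a median of -0.66, of which 1 was called. At an unadjusted p under 0.05, 2 of them were lower and 0 higher, against 4.3% and 3.89% of all genes.

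Lyz1 (chr10:117287797-117292868), the lysozyme of Paneth cells, was at 361, 229, 283 and 601 CPM in the controls and at 19.7, 56.0 and 45.9 CPM in the Hnf4g-/- libraries. The highest Hnf4g-/- library was far below the lowest control, and the log2 fold change was -3.18 (SE 0.45, adjusted p = 0.00832; 0.0760 with robust dispersion estimation). Its copy Lyz2, the lysozyme of macrophages and neutrophils, was at 306, 355, 456 and 558 CPM in the controls and 153, 488 and 331 CPM in the Hnf4g-/- libraries and was not called (adjusted p = 0.889). The copies are close in sequence and reads of 1 can be assigned to the other, so the level of each is uncertain. Clca4a, of the gut defence and secretion list, was at 29.3, 21.4, 24.9 and 12.6 CPM in the controls and 3.34, 3.54 and 1.82 CPM in the Hnf4g-/- libraries (log2 fold change -2.93, SE 0.49, adjusted p = 0.0309). Here too the groups were well apart, although reads of the Clca4 copies may also be split. Clca4b, at 2.95, 3.39, 5.70 and 18.9 CPM in the controls and 0.371, 0.708 and 0 CPM in the Hnf4g-/- libraries, was not called (adjusted p = 0.235).

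Of the 21 measured genes of gut defence and secretion, Lyz1 and Clca4a were called, 9 were lower and 0 higher at an unadjusted p under 0.05, and the list's median log2 fold change was -0.79. Among all genes tested 0.0959% were called lower, and 4.3% were lower and 3.89% higher at the unadjusted threshold. The most abundant gene of the group that stood just outside the threshold was Reg3g, a bactericidal lectin, at 2860, 5589, 4180 and 3863 CPM in the controls and 1338, 1703 and 1443 CPM in the Hnf4g-/- libraries (log2 fold change -1.46, SE 0.27, adjusted p = 0.0558). Every Hnf4g-/- library held less than the lowest control, as in 4.2% of all genes tested. Lypd8, which keeps bacteria from the colon wall, was at 62.4 to 137 CPM in the controls and at 15.4, 47.3 and 15.8 CPM in the Hnf4g-/- libraries (adjusted p = 0.191). The 4 measured butyrophilin-like genes, surface proteins that in the gut epithelium engage gamma-delta T cells, had a median of -1.81, and all 4 were lower at an unadjusted p under 0.05. None of the 4 passed the adjustment, with Btnl6 at 4.16, 11.1, 9.89 and 16.1 CPM against 0.742, 2.30 and 2.52 CPM (adjusted p = 0.177). The pseudogene Btnl5-ps of the same family, which stood just outside the threshold, was at 29.4 to 44.8 CPM in the controls and 5.75 to 11.7 CPM in the Hnf4g-/- libraries (log2 fold change -2.28, adjusted p = 0.0571).

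Genes of the enterocyte brush border, the lawn of microvilli on absorptive cells, gave 3 calls. Muc13, a transmembrane mucin, was at 59.6, 49.5, 55.9 and 75.3 CPM in the controls and at 15.9, 20.9 and 7.99 CPM in the Hnf4g-/- libraries (log2 fold change -2.02, SE 0.34, adjusted p = 0.0309). Vil1, which encodes the actin bundler villin, was at 58.7, 69.0, 81.5 and 108 CPM in the controls and at 37.8, 31.7 and 35.1 CPM in the Hnf4g-/- libraries (log2 fold change -1.18, SE 0.21, adjusted p = 0.0420). Cdhr5, a protocadherin that links microvillus tips, was at 234, 215, 224 and 251 CPM in the controls and at 149, 138 and 114 CPM in the Hnf4g-/- libraries (log2 fold change -0.79, SE 0.13, adjusted p = 0.0309). The narrow spread of Cdhr5 within each group goes with the smallest fold among the 18. Anks4b, a scaffold of the same tip complex, stood just outside the threshold at 31.7, 20.03, 34.2 and 31.2 CPM against 9.27, 6.73 and 11.2 CPM (log2 fold change -1.68, adjusted p = 0.0571), as did the disaccharidase Sis at 8.996, 10.2, 19.3 and 24.9 CPM against 2.04, 2.30 and 1.96 CPM (log2 fold change -2.90, adjusted p = 0.0571). Prom1, which encodes the prominin of membrane protrusions, was there too, at 44.4 to 59.3 CPM in the controls and 18.8 to 25.7 CPM in the Hnf4g-/- libraries (log2 fold change -1.15, adjusted p = 0.0558). The annexin Anxa10 was at 38.8 to 79.9 against 8.72 to 18.4 CPM (log2 fold change -2.15, adjusted p = 0.0571).

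Over the 30 measured brush border genes the median log2 fold change was -0.41, 11 were lower and 0 higher at an unadjusted p under 0.05, and 21 had a negative estimate. For this and the lists below, the shares over all genes tested were 0.0959% called lower, and 4.3% lower and 3.89% higher without adjustment. The member Dpp4, a peptidase, showed no such separation and was at 12.4 to 24.2 CPM in the controls and 16.6 to 19.8 CPM in the Hnf4g-/- libraries. Lipid handling gave 1 call of 24 (Fabp1), with 5 lower and 1 higher at an unadjusted p under 0.05 and a median of -0.19. Its member Apoc3, an apolipoprotein of liver and gut, was at 6.18, 10.9, 24.4 and 21.4 CPM in the controls and at 0, 4.07 and 0 CPM in the Hnf4g-/- libraries (adjusted p = 0.229). Xenobiotic metabolism gave 1 call of 24, the sulfotransferase Sult1d1, with 6 lower and 0 higher at an unadjusted p under 0.05 and a median of -0.24. Sult1d1 was at 4.03, 10.3, 6.15 and 10.9 CPM in the controls and at 1.48, 0.354 and 0.421 CPM, or 8, 2 and 3 reads, in the Hnf4g-/- libraries (log2 fold change -3.38, SE 0.61, adjusted p = 0.0472). Intestinal transporters had 0 of 25 called, 1 lower at an unadjusted p under 0.05 and a median of -0.13.

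The liver lists had no called member. At an unadjusted p under 0.05, 4.3% of all genes tested were lower and 3.89% higher. Of 32 plasma protein genes 6 were lower and 0 higher at an unadjusted p under 0.05, with a median of -0.25, and among them transthyretin, Ttr, was at 2.55 to 18.3 CPM in the controls and 0.421 to 2.83 CPM in the Hnf4g-/- libraries (adjusted p = 0.328). Of 21 genes of hepatocyte metabolism 0 were lower or higher at an unadjusted p under 0.05, and the median was 0.01. Of 20 gut and liver transcription factors 0 were called, with a median of -0.01.

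**Figure D1:**
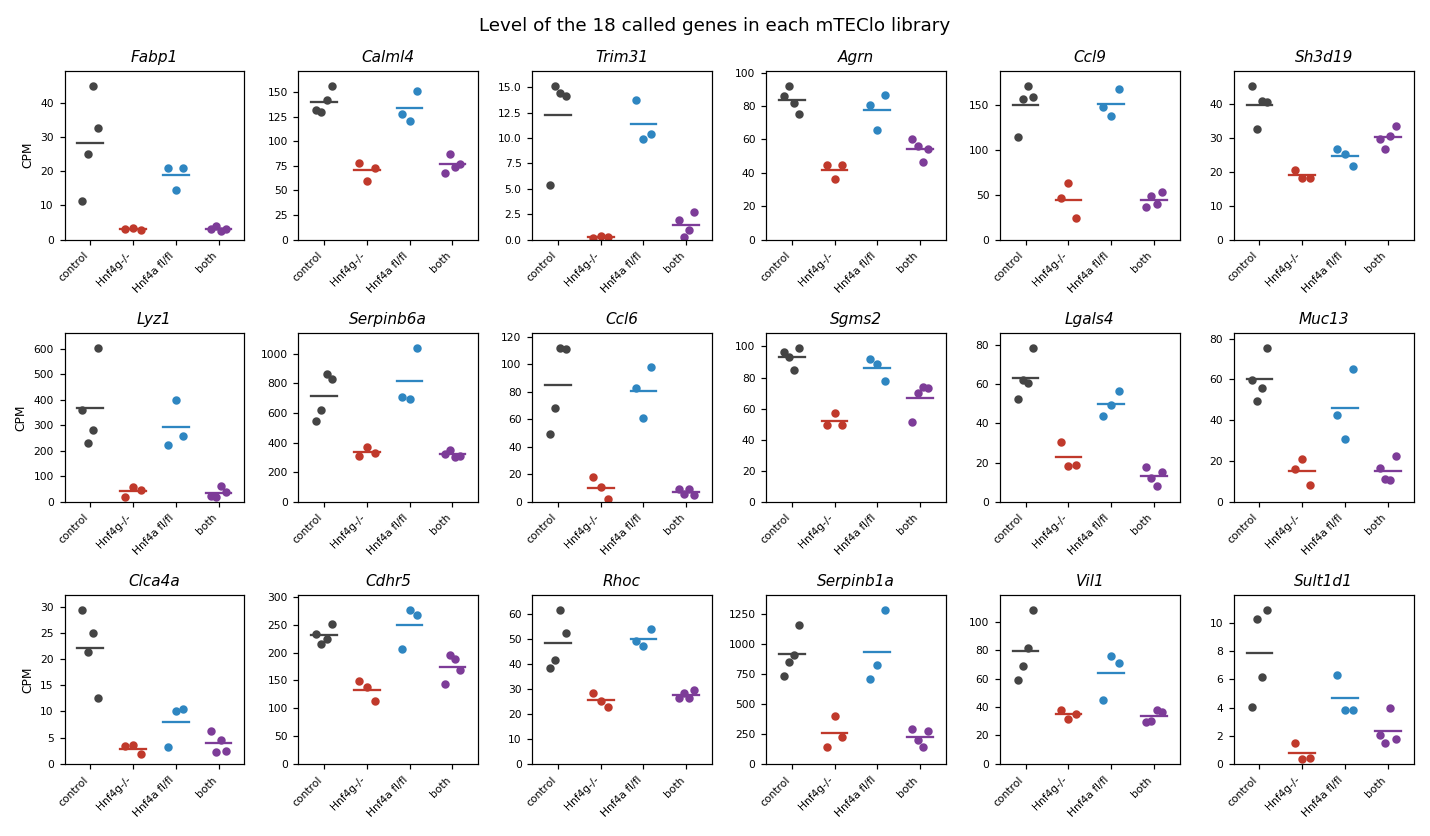
Level of each of the 18 called genes in CPM (vertical axis, from 0) in the 14 mTEClo libraries, 1 point per library with a bar at the group mean, for control (n = 4), Hnf4g-/- (n = 3), Hnf4a fl/fl (n = 3) and both removed (n = 4). In each panel the 3 Hnf4g-/- points lie below the 4 control points.

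From the list of microfold cells, which sample antigen over gut lymphoid tissue, 3 genes fell. Ccl6, a CC chemokine, was at 49.3, 68.3, 112 and 111 CPM in the controls and at 17.8, 10.6 and 2.10 CPM in the Hnf4g-/- libraries (log2 fold change -3.10, SE 0.48, adjusted p = 0.0162). Its neighbour on chromosome 11, the chemokine Ccl9, was at 115, 157, 171 and 159 CPM in the controls and at 46.6, 63.0 and 24.5 CPM in the Hnf4g-/- libraries (log2 fold change -1.76, SE 0.24, adjusted p = 0.00803). In both chemokines Hnf4g-/- replicate 3 was the lowest library and control replicate 1 the lowest control. Serpinb1a, an inhibitor of neutrophil-type serine proteases, was at 738, 855, 908 and 1163 CPM in the controls and at 143, 402 and 221 CPM in the Hnf4g-/- libraries (log2 fold change -1.84, SE 0.32, adjusted p = 0.0420).

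Of the 13 microfold genes 3 were called, 10 were lower and 2 higher at an unadjusted p under 0.05, and the median was -0.85. Over all genes tested 0.0959% were called lower, and 4.3% were lower and 3.89% higher at the unadjusted threshold. Ccl20, the chemokine that draws CCR6-bearing cells, was at 189, 229, 318 and 370 CPM in the controls and at 41.0, 110 and 55.4 CPM in the Hnf4g-/- libraries (log2 fold change -2.004, adjusted p = 0.0707). The 10 include the chemokines and serpin above and Gp2, Tnfaip2 and Sox8, known from microfold cells. They also include Pglyrp1, which is counted in the gut defence list too. Spib, a transcription factor of microfold cells that is also in the tuft list, was 1 of the 2 with a higher estimate. It was at 672 to 805 CPM in the controls and at 876, 957 and 777 CPM in the Hnf4g-/- libraries, and was not called (adjusted p = 0.605). The surface glycoprotein Gp2 was at 1714 to 2573 CPM in the controls and 892, 1748 and 1305 CPM in the Hnf4g-/- libraries, overlapped and was not called (adjusted p = 0.390). In these bulk libraries fewer cells of a type and less RNA per cell cannot be told apart.

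Ccl6, Ccl9 and the lysozymes are also products of myeloid cells, whose markers were therefore measured beside them. Of 15 measured myeloid and dendritic genes 0 were called, Itgam, Mrc1 and Sirpa were lower and 0 higher at an unadjusted p under 0.05, the median was -0.12, and the summed level was 350 to 810 CPM in the Hnf4g-/- libraries and 596 to 913 CPM in the controls, with Lyz2 a large part of it. Of all genes 4.3% were lower at that threshold. In 3 of the 15 every Hnf4g-/- library lay below every control library, as in 4.2% of all genes, and 0 lay wholly above. Of the estimates 10 were negative and 5 positive. Itgam had 37, 57, 45 and 62 reads in the controls and 13, 8 and 21 in the Hnf4g-/- libraries. Mrc1 had 218, 189, 263 and 233 reads in the controls against 98, 142 and 126. No gene of the list was at 0 in all 7 libraries. Tyrobp was at 0, 1.23, 0.150 and 0.872 CPM in the controls and 0, 2.83 and 0.982 CPM in the Hnf4g-/- libraries. Csf1r was at 6.45 to 23.1 CPM in the controls and 9.82 to 17.9 CPM in the Hnf4g-/- libraries, and Cd68 at 13.02 to 15.4 against 12.98 to 16.4 CPM. The common leukocyte gene Ptprc was at 19.0 to 33.7 CPM in the controls and at 46.6, 44.6 and 25.7 CPM in the Hnf4g-/- libraries (adjusted p = 0.622). Ccr1, a receptor for these chemokines, was at 6.04, 8.17, 23.5 and 20.6 CPM in the controls and at 0, 0.531 and 1.40 CPM in the Hnf4g-/- libraries and just missed the call (adjusted p = 0.0583). The part of myeloid RNA in these results was not tested.

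Of the other called genes, Calml4, Agrn and Sh3d19 had the smallest p. Calml4, a calmodulin-like light chain of a brush border myosin, was at 132, 130, 142 and 156 CPM in the controls and at 78.5, 59.8 and 72.8 CPM in the Hnf4g-/- libraries (log2 fold change -0.99, SE 0.13, adjusted p = 0.00499). Agrn, which encodes the basement membrane proteoglycan agrin, was at 86.3, 92.0, 81.7 and 75.0 CPM in the controls and at 44.5, 36.5 and 44.5 CPM in the Hnf4g-/- libraries (log2 fold change -1.001, SE 0.13, adjusted p = 0.00622). Sh3d19, an adaptor with SH3 domains, was at 45.2, 32.5, 40.9 and 40.5 CPM against 20.4, 18.1 and 18.2 CPM (log2 fold change -1.08, SE 0.15, adjusted p = 0.00832). In these 3 genes the libraries of a group lay close together, the folds were about 2 (1.99, 2.00 and 2.11), and they kept their call, with Ccl9, under all 15 alternative settings. Serpinb6a, a serpin, had a log2 fold change of -1.09 (SE 0.17, adjusted p = 0.0162), Sgms2, a sphingomyelin synthase, -0.85 (SE 0.13, adjusted p = 0.0162), and Rhoc, a small GTPase, -0.93 (SE 0.16, adjusted p = 0.0362). Lgals4, the galectin of intestinal epithelium, had a larger one of -1.49 (SE 0.24, adjusted p = 0.0260), with 52.5 to 78.3 CPM in the controls and 18.4 to 30.6 CPM in the Hnf4g-/- libraries.

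**Figure D2:**
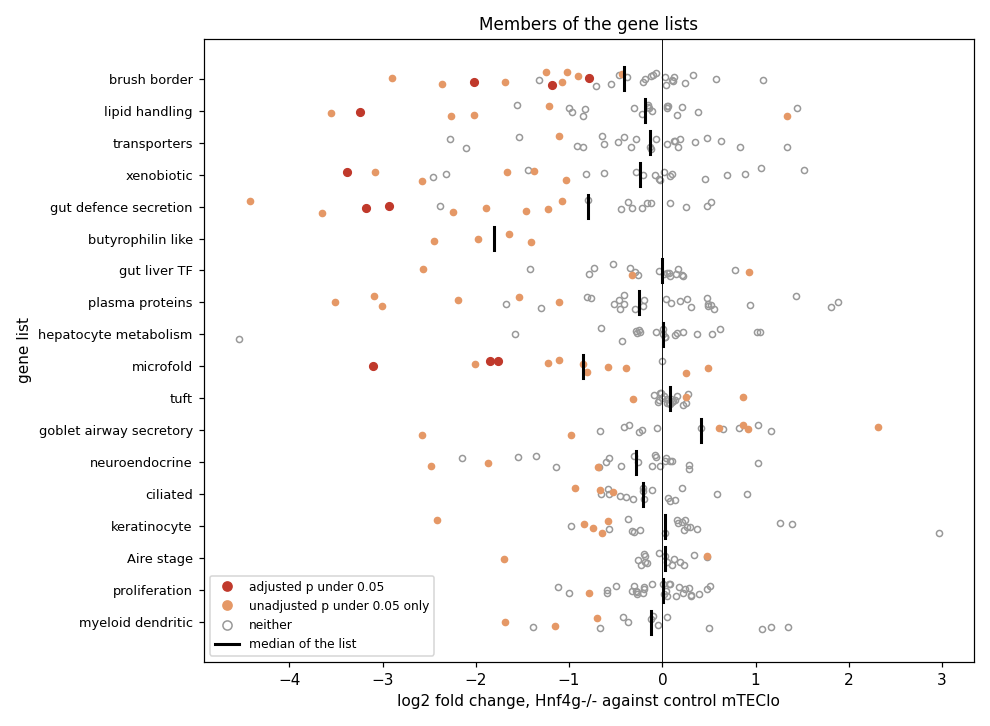
Log2 fold change of Hnf4g-/- over control mTEClo (horizontal axis, edgeR) for each measured member of 18 gene lists (vertical axis), with filled red points for adjusted p under 0.05, orange points for unadjusted p under 0.05 alone, open points for neither, and a bar at each list's median. The medians are lowest for butyrophilin-like (-1.81), microfold (-0.85) and gut defence genes (-0.79) and lie near 0 for hepatocyte metabolism (0.01) and Aire-stage genes (0.03). The lists and their members were chosen with earlier results of these data known, so the medians are descriptions.

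Genes of other mimetic cells gave 0 calls. Their counts at an unadjusted p under 0.05 stand beside 4.3% of all genes tested lower and 3.89% higher. Tuft cell genes, of the chemosensory cells also found in airway and gut, had a median of 0.08 over 22 members. At an unadjusted p under 0.05, 1 was lower and 2 were higher, Sucnr1 and the Spib that the microfold list also holds. The taste channel Trpm5 overlapped at 1718 to 2305 CPM in the controls and 1933 to 2397 CPM in the Hnf4g-/- libraries. Goblet and airway secretory genes had a median of 0.42 over 17 members, with 4 higher (Muc5ac, Cyp2f2, Spdef and Scgb1a1) and 2 lower at an unadjusted p under 0.05. In 4 of the 17 every Hnf4g-/- library lay above every control library and in 2 below, against 3.73% and 4.2% of all genes. Muc5ac, which was not called, had 138, 432, 774 and 231 reads in the controls and 2155, 1331 and 1696 in the Hnf4g-/- libraries. The largest log2 fold change of the list was 2.31. Neuroendocrine genes had a median of -0.29 over 24 members, 3 of them lower at an unadjusted p under 0.05. Of these Scg5, a chaperone of prohormone cleavage, was at 82.9 to 103 CPM in the controls and 55.8 to 57.2 CPM in the Hnf4g-/- libraries (adjusted p = 0.0608). Ciliated (19 measured, median -0.21), keratinocyte (23, 0.03), muscle (18, 0.06) and pancreatic genes (12, -0.29) had 3, 5, 1 and 0 members lower and 0, 0, 0 and 1 higher at an unadjusted p under 0.05.

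Lists of mTEC stages had medians near 0, which were 0.03 for 17 Aire-stage genes, -0.16 for 11 genes of CCL21-type immature mTECs, -0.01 for 11 cortical epithelial genes and 0.01 for 31 proliferation genes. Among lists of other cells, B cell genes had 3 of 10 higher at an unadjusted p under 0.05, against 3.89% of all genes. All 10 had a positive estimate, with a median of 0.58. Their summed level was 172 to 222 CPM in the Hnf4g-/- libraries against 148 to 175 CPM in the controls. Thymocyte genes had 0 of 8 lower or higher, with 6 positive and 2 negative estimates and a median of 0.60. Their summed level was 89.2 to 103 against 62.2 to 85.7 CPM. Fibroblast and pericyte (11 measured), endothelial (10) and erythroid genes (2) had 0 called. Of 18 dissociation stress genes 2 were higher and 0 lower at an unadjusted p under 0.05, with 16 positive and 2 negative estimates and a median of 0.18. Their summed level was 5507 to 6765 CPM in the Hnf4g-/- libraries against 5294 to 6115 CPM in the controls. Whether these levels bear on the 18 called genes was not tested.

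No gene was called higher by edgeR. Among the 10 genes just outside the threshold, 4 had a higher level in the Hnf4g-/- libraries. Rps12, a ribosomal protein gene, was at 46.1, 60.3, 70.3 and 60.2 CPM in the controls and at 117, 127 and 78.3 CPM in the Hnf4g-/- libraries (log2 fold change 0.86, adjusted p = 0.0571), and Tpt1, the translationally controlled tumor protein, at 137, 138, 162 and 148 against 285, 236 and 178 CPM (0.67, adjusted p = 0.0571). Cdkal1, a tRNA-modifying enzyme, was at 99.1 to 113 CPM in the controls and 135 to 177 CPM in the Hnf4g-/- libraries (0.54, adjusted p = 0.0571). Itprip, whose product binds the inositol trisphosphate receptor, was at 50.0 to 71.4 CPM in the controls and 89.6 to 108 CPM in the Hnf4g-/- libraries (0.73, adjusted p = 0.0571). Each of these 4 lay wholly above the controls, as did 3.73% of all genes tested. They were chosen by their p in the same libraries, so nothing is read from that. The lactate exporter Slc16a3 was at 18.3 to 32.8 CPM in the controls and 41.8 to 63.4 CPM in the Hnf4g-/- libraries (0.99, adjusted p = 0.0608). At an unadjusted p under 0.05, where 3.89% of all genes were higher and 4.3% lower, 31 of 81 measured ribosomal protein genes were higher and 0 lower. Of these 81 genes 0 were called, and their median was 0.17. Their share of all counts was 1.78% ± 0.144 (SD, n = 3) in the Hnf4g-/- libraries against 1.60% ± 0.0475 (n = 4) in the controls (exact permutation p = 0.0286, the smallest that 3 against 4 libraries allow, and 0.0857 adjusted over the 3 library measures compared). On the other Hnf4a genotype the ribosomal share was lower, not higher, on loss of Hnf4g. It was 1.55%, 1.65% and 1.80% in the Hnf4a fl/fl libraries and 1.37%, 1.40%, 1.45% and 1.38% in the double mutants. That difference was not tested. The mitochondrial share did not differ between Hnf4g-/- and control beyond its spread (1.63% against 1.65%, exact permutation p = 0.857, adjusted 0.857).

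The loss of Hnf4g could be examined a second time on the other Hnf4a genotype, in 4 double-mutant and 3 Hnf4a fl/fl libraries that had no part in calling the 18 genes, although all 14 libraries shared 1 estimate of the spread. There, 17 of the 18 genes had a negative estimate, 16 at an unadjusted p under 0.05 (5.97% of all genes), and 11 were called lower, against 49 lower (0.261%) and 6 higher (0.032%) of all genes. The 11 were Fabp1, Calml4, Trim31, Ccl9, Lyz1, Serpinb6a, Ccl6, Lgals4, Muc13, Rhoc and Serpinb1a. The median of the 18 was -1.17 and that of all genes 0.01. Fabp1 was at 20.9, 14.6 and 20.9 CPM in the Hnf4a fl/fl libraries and at 3.15, 3.83, 2.51 and 2.97 CPM in the double mutants, the level it also had in the Hnf4g-/- group. Ccl6 was at 83.0, 60.9 and 98.4 CPM in the Hnf4a fl/fl libraries and 4.61 to 9.45 CPM in the double mutants (log2 fold change -3.48, SE 0.45, adjusted p = 0.00379). Trim31 was at 13.8, 9.93 and 10.4 against 1.92, 0.295, 0.926 and 2.68 CPM (log2 fold change -2.95, SE 0.51, adjusted p = 0.0257). The count of 49 rested on Hnf4a fl/fl replicate 3 above all: without it 7 genes were called, 6 of them among the 18, while without double-mutant replicate 1, 3 or 4 the counts were 20, 18 and 31 with 8, 8 and 10 of the 18.

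The reverse view began from the 49 genes called lower in those 7 libraries. Of these, 48 had a negative estimate in the comparison of Hnf4g-/- with control, 41 were lower at an unadjusted p under 0.05 where 4.3% of all genes were, and their median was -1.33. The 11 genes called in both are 61.1% of the 18 and 22.4% of the 49. The metalloprotease Mep1a, 1 of the 49, was at 44.4, 53.2, 77.8 and 83.1 CPM in the controls and 5.56, 20.01 and 12.1 CPM in the Hnf4g-/- libraries (log2 fold change -2.36, adjusted p = 0.0655). Across all 18775 genes the fold changes of the 2 comparisons were weakly related (Pearson r = 0.145, Spearman rho = 0.0997), a description across genes, which are not independent replicates.

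In Sh3d19 the estimate was positive there. Its level was 26.8, 25.3 and 21.7 CPM in the Hnf4a fl/fl libraries and 29.7, 26.8, 30.4 and 33.6 CPM in the double mutants, all above the Hnf4g-/- group and nearly all below the controls. The log2 fold change on the Hnf4a fl/fl genotype was 0.29 (adjusted p = 0.488). The difference between the effects of losing Hnf4g on the 2 Hnf4a genotypes, tested as an interaction, was 1.37 for Sh3d19, with an unadjusted p of 8.4e-06 and an adjusted p of 0.106, the smallest of all genes. Over all genes 0 interactions were called by edgeR (0%), with 1473 at an unadjusted p under 0.05 (7.85%), while DESeq2 called 68 lower and 22 higher and voom 0. Of the 18 genes, 13 had a positive interaction, which is a smaller drop on the Hnf4a fl/fl genotype, and 6 of them (Trim31, Agrn, Sh3d19, Sgms2, Clca4a and Sult1d1) had an unadjusted p under 0.05, as did 3.73% of all genes in that direction. The interaction contains the contrast that called the 18, so nothing is read from this count. Sh3d19 was called in the interaction by DESeq2 and, by edgeR, without double-mutant replicate 2. Sis and Clca4a were low in both single removals. Sis had a mean of 2.81 CPM in the Hnf4a fl/fl and 2.10 in the Hnf4g-/- libraries against 15.8 in the controls, and Clca4a 7.92 and 2.90 against 22.1 CPM. These means share their control libraries, and the interaction of neither gene was called.

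**Figure D3:**
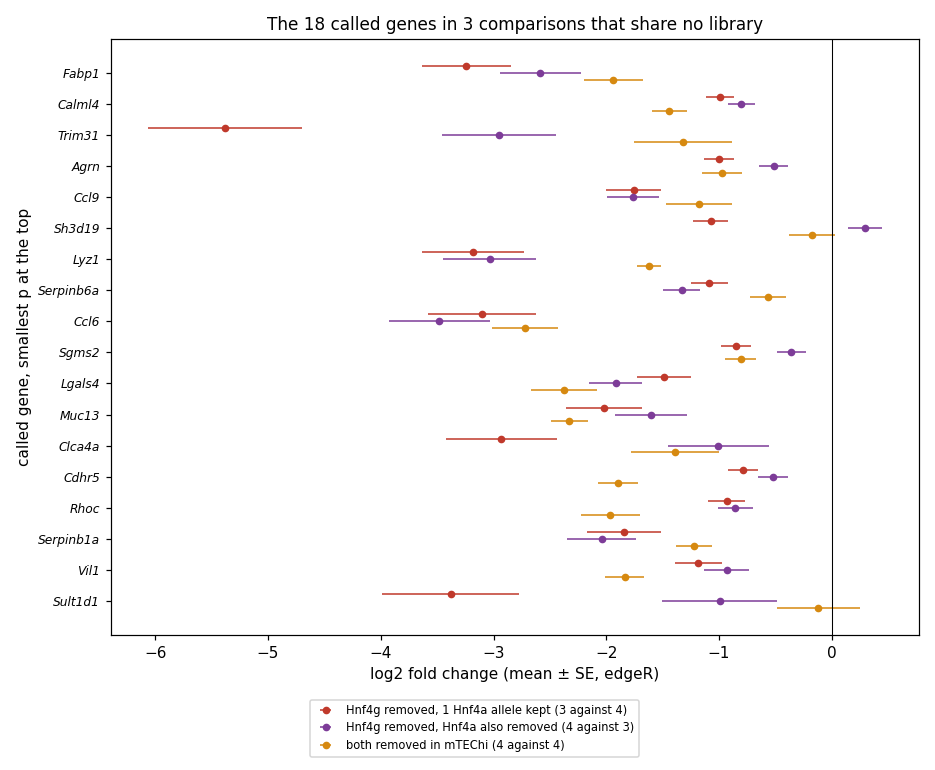
Log2 fold change (horizontal axis, edgeR, with bars of 1 SE) of the 18 called genes (vertical axis, smallest p at the top) for Hnf4g removal with 1 wild-type Hnf4a allele kept (3 against 4 libraries), for Hnf4g removal with Hnf4a also removed (4 against 3), and for removal of both in mTEChi (4 against 4). The points lie left of 0 except that of Sh3d19 with Hnf4a also removed (0.29).

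The single removals were also set against each other. Between the Hnf4g-/- and the Hnf4a fl/fl libraries 11 genes were lower (0.0586%) and 1 higher (0.00533%) in Hnf4g-/- cells, and 10 of the 11 were among the 18. This contrast uses the Hnf4g-/- libraries that called the 18, so its count over them is a description. Each of the 18 had a lower estimate in the Hnf4g-/- libraries, from -5.28 for Trim31 to -0.38 for Sh3d19. The other gene called lower was Serinc3, at 155 to 183 CPM in the controls, 146 to 166 CPM in the Hnf4g-/- and a mean of 288 CPM in the Hnf4a fl/fl libraries. The gene called higher was the mitochondrial iron importer Slc25a37, at 50.8 to 54.2 CPM in the Hnf4g-/- libraries, 35.0 to 42.9 CPM in the controls and a mean of 27.5 CPM in the Hnf4a fl/fl libraries. Without Hnf4a fl/fl replicate 3 only 2 genes were called lower, Trim31 being the 1 of them among the 18, and without Hnf4g-/- replicate 3 the higher count was 28. Leaving out Hnf4g-/- replicate 1 or 2 or Hnf4a fl/fl replicate 1 left 6, 4 and 6 of the 18 called.

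Nearly all of the 18 genes were higher in the entero-hepato gate of wild-type thymus, in libraries of another genotype. All 18 had a positive estimate in the gate against cells outside it and 17 were called higher, against 22.7% of the 16811 genes tested there, with a median log2 fold change of 3.39. Ccl6 had 5.48, Muc13 5.43, Lgals4 4.86, Fabp1 4.47 and Ccl9 4.44. Sh3d19, with 0.50 and an adjusted p of 0.0779, was not called. The larger set called by DESeq2 for Hnf4g removal had the same placing: of its 103 lower genes 102 were tested in the gates and 90 were called higher in the gate with a log2 fold change over 1 (88.2%, where 12.8% of all genes tested in the gates were), of its 41 higher genes 38 were tested and 1 was (2.63%), and of all genes tested in both 12.4% were.

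Most genes of the gate were not called on loss of Hnf4g. Of 2019 measured genes called higher in the gate with a log2 fold change over 1, 17 were called lower, 332 were lower and 40 higher at an unadjusted p under 0.05, and the median was -0.15. With a gate fold change over 3 (311 genes) the median was -0.78, with 113 lower and 4 higher, and over 5 (41 genes) it was -1.83, with 20 lower and 0 higher. These sets are nested, and 4.3% of all genes tested were lower and 3.89% higher at the unadjusted threshold. Of 2186 genes called lower in the gate with a log2 fold change under -1, 0 were called, 50 were lower and 95 higher at an unadjusted p under 0.05, and the median was 0.05. Across 16252 genes the gate's fold change and that of Hnf4g removal had a Pearson r of -0.225 and a Spearman rho of -0.159, again as a description across genes.

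**Figure D4:**
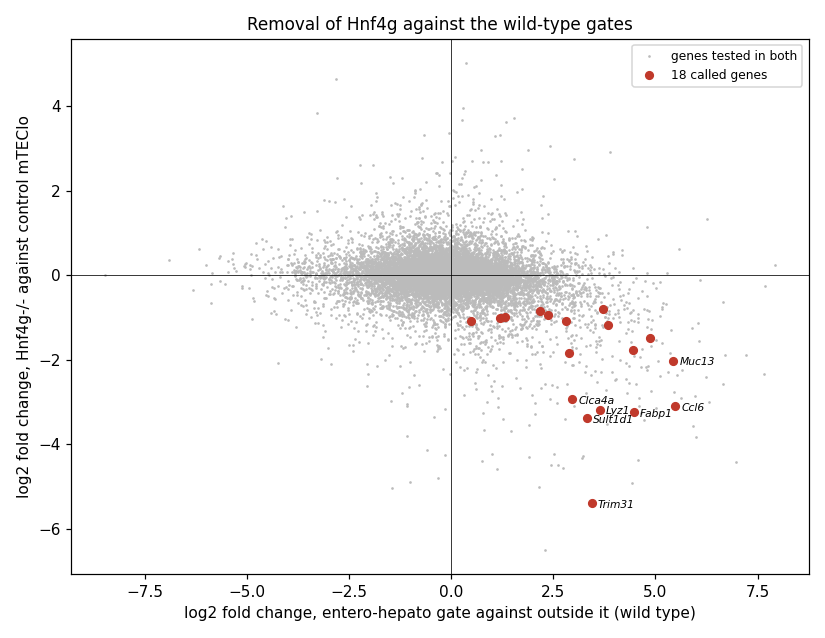
Log2 fold change of Hnf4g-/- over control mTEClo (vertical axis) against that of the entero-hepato gate over cells outside it in wild-type thymus (horizontal axis), both by edgeR, 1 grey point per gene tested in both fits (16252) and red points for the 18 called genes. All red points lie right of 0 on the horizontal axis, from 0.50 (Sh3d19) to 5.48 (Ccl6).

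In mTEChi, the mTEC subset with high MHC class II, only removal of both genes was measured. Each of the 18 genes had a negative estimate in double-mutant against control mTEChi and 12 were called lower, against 110 lower (0.597%) and 7 higher (0.038%) of 18413 genes, with a median of -1.42. The called genes were Fabp1, Calml4, Agrn, Lyz1, Ccl6, Sgms2, Lgals4, Muc13, Cdhr5, Rhoc, Serpinb1a and Vil1. Cdhr5 had a log2 fold change of -1.90 (adjusted p = 0.000417) and Rhoc one of -1.96 (adjusted p = 0.00310). Trim31, which had the largest fold among the 18 in Hnf4g-/- mTEClo, had -1.32 there and was not called (adjusted p = 0.263), and Sult1d1 had -0.12 (adjusted p = 0.941). The count of 110 fell to 69, 64 and 69 without mTEChi control replicate 3 or 4 or double-mutant replicate 1, with 10 of the 18 called in each, and the higher count rose to 62 without double-mutant replicate 3. The share of the effect due to Hnf4g and that due to Hnf4a cannot be told apart in this comparison.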

How the data were processed

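The libraries were bulk RNA sequencing of sorted mTECs. Per the labels' protocols, 1000 cells per library were sorted and amplified from an oligo(dT) primer with 18 PCR cycles, with no molecular identifiers and no strand information. The deposited values are whole-number read counts per gene symbol (55011 symbols, 28 libraries), not normalized. Reads were handled with STAR 2.7.3a and featureCounts on mm10, per the submitters' processing notes. Every column matched a sample.

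Counts of the 14 mTEClo libraries were fitted together with edgeR 4.0.16 in R 4.3.3 (TMM, filterByExpr with minimum count 10 and minimum total 15, quasi-likelihood test). P-values were adjusted over all genes tested, and adjusted p under 0.05 was called. The wild-type gates and mTEChi had fits of their own, and their CPM were scaled separately. DESeq2 1.42.0, voom (limma 3.58.1), RLE factors, other filters, a fit on the compared groups, a replicate block and leaving out each library were alternatives. The chi-square statistic of the counts of each replicate pair, divided by its degrees of freedom, was 8.12 to 24.2, above sampling noise for each pair. No p-value was computed from it. In simulated counts of Hnf4g-/- against control (18222 genes tested) 46% of 2-fold and 81% of 4-fold lower genes were recovered, and 1.55% of calls were false. These counts were simulated and fitted for the 7 libraries alone, unlike the fit of 14 that gave the calls. Only genes above a floor of mean reads were changed, so the rates need not hold for the reported calls. Shares of counts were compared by exact permutation, two-sided; summed marker lists were given without a test. Positions are from GENCODE M21 (GRCm38).

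The rule for named genes took Hnf4g, Hnf4a, Aire, all called genes, the next 10 by p, the called and 2 lowest-p members of each of 29 marker lists, the most abundant gut and liver members, paralogs, and the leading genes by DESeq2, in the higher direction and between the single removals, and the text gives a selection of them. Epcam, Csf1r, Cd68, Tyrobp, Sirpa, Dpp4, Trpm5, Cyp2f2, Spdef, Scgb1a1, Lypd8, Ttr and Mep1a were added after their values were seen. The members and lists were chosen with earlier results of these data known.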

Additional observations from a re-analysis of the deposited data

Results flagged for a closer look

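Among 77 groups of 4 libraries examined, 3 held a library far from the others, and chance gives about 1 in 20. Trim31 in the mTEClo controls was at 5.37 CPM in replicate 1 and at 14.1 to 15.1 CPM in the other three, a gap of 0.897 of the group's range. The ribosomal protein share in the mTEClo controls was 1.53% in replicate 1 and 1.62% to 1.63% in the others, a gap of 0.848 of the range. Sgms2 in double-mutant mTEClo was at 51.1 CPM in replicate 1 and at 70.3 to 73.6 CPM in the others, a gap of 0.855 of the range. With control replicate 1 left out, 14 genes were called lower and 1 higher on loss of Hnf4g.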

How the results depend on the processing

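For loss of Hnf4g alone, 18 genes were called lower and 0 higher. DESeq2 gave 103 and 41, no filter on low counts 286 and 196, robust dispersion estimation 17 and 3, and a fit on the compared groups 26 and 1. Fits without 1 library gave 8 to 16 lower and 0 to 13 higher. For loss of Hnf4g on the Hnf4a fl/fl genotype (49 and 6), DESeq2 gave 201 and 78, no filter 539 and 194, voom 26 lower, and fits without 1 library 7 to 51 lower and 0 to 5 higher. For the interaction (0 and 0), DESeq2 gave 68 and 22, no filter 233 and 98, and fits without 1 library 0 to 7 lower and 0 to 1 higher. Between the single removals (11 and 1), DESeq2 gave 56 and 35, no filter 205 and 199, the fit on the compared groups 1 and 0, and fits without 1 library 2 to 11 lower and 0 to 28 higher. In mTEChi (110 and 7), DESeq2 gave 321 and 116, no filter 388 and 231, and fits without 1 library 64 to 126 lower and 5 to 62 higher. The wild-type gate counts stayed within 1.5 times. The ribosomal share difference was 0.105 to 0.250 percentage points without 1 library, never past the threshold since fewer libraries cannot reach it, and the mitochondrial difference, -0.0159, ranged from -0.0639 to 0.0530. The cause of these shifts was not tested.

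Whether replicate numbers pair the libraries cannot be decided from so few libraries per group. Same-numbered Hnf4g-/- and control libraries correlated at 0.215, 0.00199 and -0.0152 in their deviations from the group means. Differently numbered libraries correlated at -0.215 to 0.135. Replicate 1 had the lowest Aire-stage sum in both groups, 6593 CPM in Hnf4g-/- and 10476 CPM in the controls. With the number as a replicate block 25 genes were lower and 0 higher for loss of Hnf4g alone, 13 of them among the 18 (Cdhr5, Muc13, Rhoc, Serpinb1a and Sult1d1 were not called), 93 and 11 on the Hnf4a fl/fl genotype, and 15 and 2 between the single removals.

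With 3 against 4 libraries of 1000 cells, low genes such as Trim31 rest on few reads, and PCR copies count as reads.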
